A study of Sus scrofa with 12 samples.

Results

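Genomic imprinting marks the paternal or the maternal copy of a gene so that mainly the other copy is transcribed, and many imprinted genes set the growth of the fetus and of muscle. In textbook accounts of mammals, genes expressed from the paternal copy mostly favour growth and genes expressed from the maternal copy mostly restrain it. DLK1, MEST, PEG3, PEG10, PLAGL1 and NNAT are known as paternally expressed genes. CDKN1C is maternally expressed, and so is GRB10 in most tissues of the mouse. The reads analysed here were not assigned to a parental copy, so imprinting itself was not measured.

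The accessibility of these 8 imprinted growth genes was compared between Luchuan and Duroc pigs by ATAC-seq, in which a transposase cuts open DNA and the reads pile up where chromatin is open. The longissimus dorsi muscle, a back muscle, came from 3 Luchuan and 3 Duroc boars aged 180 days. All were housed alike with food at will and fasted overnight, and no treatment is named. The table holds 1 raw read count per peak and breed and no count for each boar, so no difference has a replicate check and none was tested. The libraries of mRNA from the same groups were not analysed here. Peaks belonged to a gene when their midpoint lay in its body on the Sscrofa11.1 genome or within 10 kb of it. This rule used no read count. It gave 131 of the 217213 peak intervals, which merged into 76 of 140081 open regions. Of the 76 regions, 46 belonged to GRB10, 8 to PLAGL1, 6 each to PEG3 and NNAT, 5 to MEST, 2 each to DLK1 and CDKN1C, and 1 to PEG10. A protein-coding gene with any region had a median of 5 regions. The member farthest from its gene was a NNAT region 9.46 kb away with 41 Luchuan and 76 Duroc reads, and the nearest one left out lay 10.5 kb from PLAGL1 with 23 and 25 reads.

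Duroc had more reads than Luchuan over all regions, with 20760292 against 13746432, and the medians per region were 61 and 38. The median region therefore had 1.48 Duroc reads for each Luchuan read. Differences are given as the log2 ratio of Luchuan to Duroc reads, with 1 added to each count, centred on this median, so that 0 stands for the typical region and positive values for more reads in Luchuan. Intervals in parentheses are exact 95% intervals (Clopper-Pearson), computed from the share that Luchuan had in a region's reads. They cover counting error only, without the spread between boars. No molecular identifiers are named in the sources used here, so reads may repeat the same molecule. Low counts leaned towards Luchuan. The median centred log2 ratio was 0.32 in the 25% of regions with the fewest reads and -0.017 in the 25% with the most. The genome used for alignment is that of a Duroc pig, and its part in the differences was not tested.

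The labelled tissue was checked against marker genes. All 8 muscle fiber genes found in the annotation, among them ACTA1, CKM and TNNT3, had a region in the top 25% of all regions by reads, with 1344 to 3736 reads of both breeds. A region in this top 25% was also held by all 3 satellite cell genes, all 4 macrophage genes and 2 of 4 fibroblast genes. The same held for 1 of 5 adipocyte, 1 of 4 endothelial, 1 of 3 hepatocyte and 1 of 3 neuron genes. This mark is thus not particular to muscle fibers. The muscle fiber list had a median centred log2 ratio of -0.12 (range, -0.46 to 0.07). The lists for other cells had medians of -0.21 for satellite cells (-0.27 to 0.09), 0.08 for adipocytes (-0.92 to 0.35), 0.12 for fibroblasts (-0.10 to 0.34), 0.38 for endothelial cells (-0.12 to 0.80) and 0.067 for macrophages (-0.094 to 0.19). Cells that this tissue should lack had 0.81 for hepatocytes (-0.058 to 1.22) and -0.011 for neurons (-0.083 to 0.098). The endothelial list held 532 Luchuan and 737 Duroc reads in all, and the adipocyte list 863 and 1549. No list was without reads. The strongest regions of the hepatocyte genes ALB, TTR and APOA1 had 57, 22 and 754 reads, and those of the neuron genes NEUROD1, RBFOX3 and SYP had 72, 90 and 1087. In bulk muscle, a larger share of cells with an open region and a more open region in each cell cannot be told apart, and the part of cell composition in the results was not tested.

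None of the 8 genes passed 1.5-fold with an interval that left out 0. Among the 16888 protein-coding genes with at least 20 reads, 4.23% passed this rule with more reads in Luchuan and 2.65% with more in Duroc. The centred log2 ratio of the summed reads was above 0 for 5 genes and below 0 for 3, with a median of 0.084. Over all protein-coding genes the median was 0.0024 and the interquartile range -0.14 to 0.16. MEST lay highest among the genes with a narrow interval and CDKN1C lowest, and the other genes lay between 1.06-fold and 1.14-fold, apart from DLK1, whose interval was wide.

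**Figure D1:**
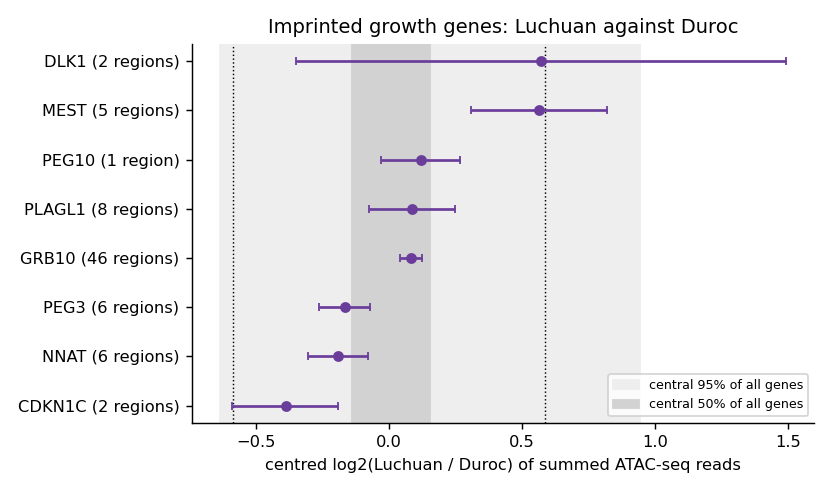
Centred log2 ratio of Luchuan to Duroc reads (horizontal axis) summed over the open regions of each of the 8 imprinted growth genes, with exact 95% intervals for counting error. Grey bands hold the central 50% and 95% of the protein-coding genes with at least 20 reads and dotted lines mark 1.5-fold. MEST (0.56) and CDKN1C (-0.39) have intervals that do not overlap, and DLK1 has the widest interval.

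In order of the centred log2 ratio, the genes were DLK1 at 0.57, MEST at 0.56, PEG10 at 0.12, PLAGL1 at 0.087, GRB10 at 0.081, PEG3 at -0.17, NNAT at -0.19 and CDKN1C at -0.39. Differences between genes do not depend on a common scale factor. Between neighbours in this order, the interval of the difference left out 0 for MEST against PEG10, which differed by 0.45 (0.15 to 0.74), and for GRB10 against PEG3, which differed by 0.25 (0.14 to 0.35). It held 0 for the other 5 pairs of neighbours. MEST and CDKN1C differed by 0.95 (0.63 to 1.28). The neighbours DLK1 and MEST differed by 0.0056 (-0.95 to 0.97), so the few reads of DLK1 gave it no firm place in the order. The pairs were picked by the same ratios that they compare. Their intervals hold counting error only, so the place of the other genes was not tested between boars either.

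The strength of the open chromatin varied far more between these genes than the breeds did. By reads of both breeds together, 27 of the 76 regions, or 35.5%, were in the top 25% of all 140081 regions, and 5 were in the bottom 25%. PEG3, PEG10, GRB10, CDKN1C and NNAT each had a region above the 90th percentile of reads. The strongest region of MEST was at the 68.8th percentile and both DLK1 regions were at the 3.06th. Per kb of region, PEG10 was the most accessible, with 748 Luchuan and 1023 Duroc reads per kb. DLK1 was the least accessible, with 67.7 in both breeds. MEST had 185 Luchuan and 186 Duroc reads per kb. PLAGL1 had 181 Luchuan and 253 Duroc reads per kb, and the other 4 genes had 330 to 426 in Luchuan and 599 to 683 in Duroc. These levels are raw reads, and the annotation used here gives no strand, so promoters were not separated from other gene ends.

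**Figure D2:**
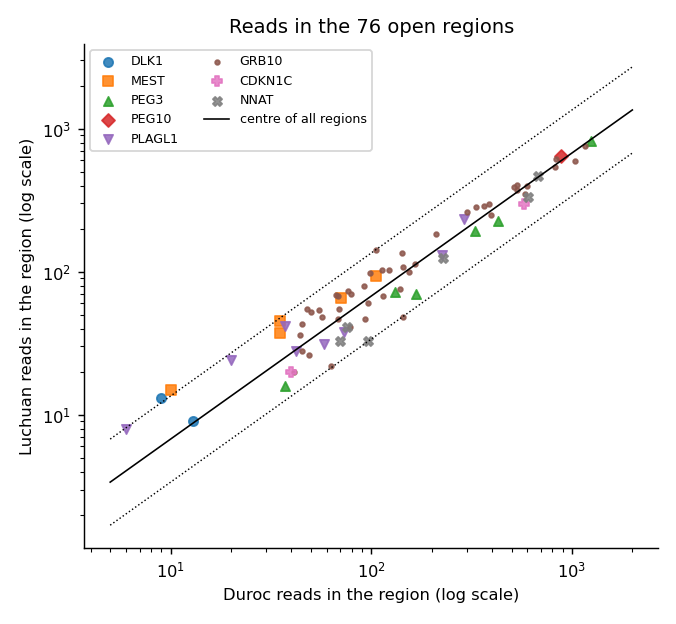
Raw Duroc reads (horizontal axis) against raw Luchuan reads (vertical axis), both on a log scale, for the 76 open regions, with a symbol for each gene. The solid line is the median ratio of all regions and the dotted lines are 2-fold from it. All regions of MEST lie above the solid line, those of CDKN1C and PEG3 below it, and both regions of DLK1 have 22 reads.

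MEST, also called PEG1, encodes a protein of the alpha/beta hydrolase family that is abundant in mesodermal tissue of the embryo. It lies on chromosome 18 from 18319126 to 18358655, and its 5 regions held 256 Luchuan and 257 Duroc reads. Almost equal raw counts, against 1.48 Duroc reads for each Luchuan read in the typical region, gave a centred log2 ratio of 0.56 (0.31 to 0.82), or 1.48-fold more in Luchuan. Of the 3310 genes with 0.5 to 2 times its reads, 4.92% had a ratio as high and 11.8% one as far from 0 in either direction. This value lay just under 1.5-fold and passed it with 2 other scalings, at 0.59 with scaling by total reads and at 0.63 with scaling among regions of similar signal.

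All 5 MEST regions were above 0. Detected in both breeds, 4 of them stood within 1.58 kb inside the gene, from 18345438 to 18347017, at least 11638 bases from either gene end. The first of these, from 18345438 to 18346014, was the strongest, with 93 Luchuan and 106 Duroc reads and a ratio of 0.38 (-0.036 to 0.80). The second, from 18346248 to 18346455, had 45 and 35 reads and a ratio of 0.92 (0.26 to 1.61), and was the only one whose own interval left out 0. The third had 37 and 35 reads and the fourth 66 and 71, with ratios of 0.65 and 0.47. Together the 4 regions had a ratio of 0.54 (0.27 to 0.80), so the excess in Luchuan was spread over them. The remaining region, from 18324160 to 18324309, was a peak in Luchuan alone with 15 and 10 reads, and also lies in the body of COPG2, an overlapping gene. Outside the limit of 10 kb, the nearest region, 18.2 kb away from 18300854 to 18301003, held 24 reads in Luchuan and 5 in Duroc, at a ratio of 2.63 (1.41 to 4.58). This region lies in the body of COPG2. For the other genes the nearest region left out had 0.92 (DLK1), 0.71 (PEG3), -0.70 (PEG10), 0.45 (PLAGL1), 0.63 (GRB10), 0.16 (CDKN1C) and -0.33 (NNAT). Those of PEG3, PEG10 and CDKN1C went against the ratio of their gene.

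CDKN1C encodes p57, an inhibitor of cyclin-dependent kinases that stops the cell cycle, also as muscle cells differentiate. It lies on chromosome 2 from 2019391 to 2022092 and had 316 Luchuan and 615 Duroc reads in 2 regions. Its centred log2 ratio of -0.39 (-0.59 to -0.19) was 1.31-fold more in Duroc, the largest excess of Duroc among the 8 genes, and stayed between -0.42 and -0.36 under all 12 alternatives that scaled the counts. Of the 6226 genes with 0.5 to 2 times its reads, 7.74% had a ratio as low and 12.7% one as far from 0 in either direction. The region from 2021639 to 2022444, detected in both breeds, spans the gene end with the higher coordinate and held 296 Luchuan and 575 Duroc reads, with a ratio of -0.39 (-0.59 to -0.18). The other region, from 2025566 to 2025718, lies 3474 bases beyond that end and was a peak in Duroc alone. It had 20 Luchuan and 40 Duroc reads and the same ratio of -0.39, with a wider interval of -1.28 to 0.38.

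NNAT encodes neuronatin, a small membrane protein of the endoplasmic reticulum, and lies within the body of BLCAP, a gene expressed in many tissues. On chromosome 17 from 40625990 to 40629523, it had 6 regions with 1034 Luchuan and 1754 Duroc reads and a centred log2 ratio of -0.19 (-0.30 to -0.080). All 6 lie within 10 kb of BLCAP too and 4 of them have their midpoint in its body, so the reads cannot be given to either gene. The 4 regions in the body of BLCAP were all below 0 and together had a ratio of -0.36 (-0.51 to -0.20). The 2 others together had 0.0024 (-0.16 to 0.17). The region highest in reads, from 40633148 to 40634092, was among the latter, with 468 Luchuan and 679 Duroc reads and a ratio of 0.034. It spans the end of BLCAP at 40633613 and is outside the body by its midpoint only, so these 2 regions are not free of BLCAP. The one inside NNAT, from 40628251 to 40628623, had 125 and 227 reads and a ratio of -0.29 (-0.62 to 0.031). The next strongest, from 40630189 to 40630947, is 666 bases beyond the higher gene end and had 334 and 606 reads and a ratio of -0.29 (-0.49 to -0.094). The lowest ratio, -0.94 (-1.59 to -0.39), belonged to a peak of Duroc alone from 40621370 to 40621619, with 33 and 96 reads.

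PEG3 encodes a zinc finger protein that is known in muscle stem cells and in the response to tumour necrosis factor. It lies on chromosome 6 from 61281931 to 61307788, and its 6 regions held 1401 Luchuan and 2337 Duroc reads, a centred log2 ratio of -0.17 (-0.26 to -0.072). All 6 regions were below 0. The strongest region of the 8 genes, at the 99.6th percentile of all regions, stood 1293 bases inside the higher gene end from 61305134 to 61306495. It held 825 Luchuan and 1247 Duroc reads and a ratio of -0.025 (-0.15 to 0.10), so the breeds did not differ there beyond counting error. The next region, from 61306788 to 61307310, had 227 and 426 reads and a ratio of -0.33 (-0.58 to -0.10). The region from 61307535 to 61307950 spans the higher gene end and had 191 and 327 reads, with a ratio of -0.20 (-0.47 to 0.0565). In the middle of the gene, from 61297203 to 61297829, 70 and 168 reads gave -0.68 (-1.12 to -0.28). The 2 regions outside the gene, 8172 and 7821 bases away, had 16 and 37 reads and 72 and 132 reads. The upper 3 regions also lie within 10 kb of LOC110261077 and the outer 2 within 10 kb of LOC100522375.

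PEG10 derives from a retrotransposon and is needed for the placenta, and it stands head to head with SGCE, which encodes the muscle membrane protein epsilon-sarcoglycan. On chromosome 9 from 74474121 to 74486983, it had 1 region, from 74475248 to 74476113, which lies 1127 bases inside the lower gene end and is also within 10 kb of SGCE. It held 648 Luchuan and 886 Duroc reads and was at the 98.4th percentile of all regions. Its centred log2 ratio was 0.12 (-0.029 to 0.27), so no difference was detectable at this depth, and the interval leaves out an excess of Luchuan above 1.5-fold.

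PLAGL1, or ZAC1, encodes a zinc finger transcription factor that controls other imprinted genes. It lies on chromosome 1 from 21299830 to 21371070 and had 8 regions with 537 Luchuan and 751 Duroc reads, a centred log2 ratio of 0.087 (-0.076 to 0.25). Its regions went both ways, with 5 above and 3 below 0. The strongest, from 21303683 to 21304545, is 3853 bases inside the lower gene end and had 235 and 290 reads and a ratio of 0.27 (0.0125 to 0.52). Nearer that end, 241 bases inside it, the region from 21300071 to 21300363 had 38 and 73 reads and a ratio of -0.35 (-0.98 to 0.21). The next strongest, from 21360332 to 21361061, had 131 and 225 reads and a ratio of -0.21 (-0.53 to 0.11). The region across the higher gene end, from 21371056 to 21371282, was a peak in Duroc alone with 28 and 42 reads and a ratio of 0.0020. Only the region with 42 and 37 reads, from 21368973 to 21369174, had another interval above 0, with 0.75 (0.081 to 1.43). The region with 8 and 6 reads was the only one of the 76 with fewer than 20.

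DLK1 encodes a membrane protein of the Notch ligand type that marks preadipocytes and fetal muscle. It had the fewest reads of the 8 genes, and each of its regions had 22, as the hepatocyte marker TTR did. On chromosome 7 from 121565844 to 121577493, it had 2 regions with 22 Luchuan and 22 Duroc reads in all, both of them peaks in Luchuan alone. The region from 121565455 to 121565604 lies 240 bases outside the lower gene end and held 9 reads in Luchuan and 13 in Duroc, a ratio of 0.085 (-1.37 to 1.38). The region from 121577133 to 121577307 lies 186 bases inside the other end and had 13 and 9 reads, a ratio of 1.06 (-0.24 to 2.51). The summed ratio of 0.57 (-0.35 to 1.49) was typical of such low counts, since 48.4% of the 914 genes with 0.5 to 2 times its reads were as high. With scaling among regions of similar signal it turned to -0.32.

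**Figure D3:**
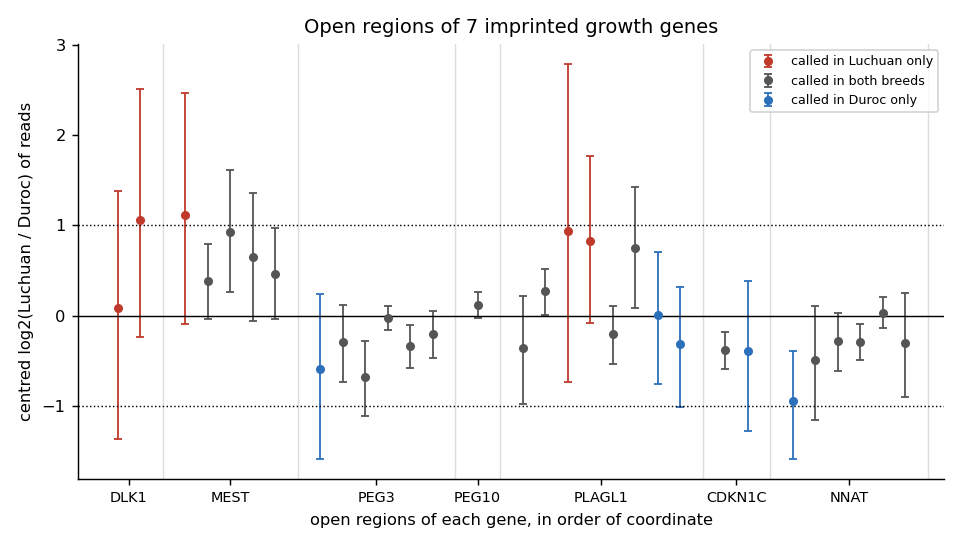
Centred log2 ratio of Luchuan to Duroc reads (vertical axis) for the 30 open regions of 7 of the genes, in order of coordinate within each gene, with exact 95% intervals for counting error, coloured by the breed in which the peak was detected. Dotted lines mark 2-fold. All 5 regions of MEST lie above 0 and all 6 of PEG3 and both of CDKN1C below it.

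GRB10 encodes an adaptor protein that binds the insulin and insulin-like growth factor receptors and dampens their signal, and its loss in mice enlarges muscle. It had the most regions of the 8 genes, 46 on chromosome 9 in and around its body from 136580363 to 136742552. Of all protein-coding genes, 1.25% had 46 or more regions, and longer genes can hold more of them. The regions held 8066 Luchuan and 11326 Duroc reads and a summed ratio of 0.081 (0.039 to 0.12), or 1.06-fold. Counting error is small here, so the interval left out 0 for a difference that 60.7% of the 356 genes with 0.5 to 2 times its reads reached in either direction. A ratio as high was held by 20.5% of them.

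The region from 136638290 to 136639718 held the most reads of the GRB10 regions, with 754 Luchuan and 1165 Duroc, and had a centred log2 ratio of -0.057 (-0.19 to 0.076). The next, from 136689232 to 136690817, held 595 reads in Luchuan and 1030 in Duroc, and its ratio of -0.22 (-0.37 to -0.074) had an interval below 0. The 5 regions with the most reads together had -0.049 (-0.12 to 0.019), with single values from -0.22 to 0.13. The region across the higher gene end, from 136742331 to 136743274, had 352 and 581 reads and a ratio of -0.15 (-0.35 to 0.041). Inside the lower gene end by 1230 bases, the region from 136581593 to 136582600 had 370 and 533 reads and a ratio of 0.045 (-0.15 to 0.24). Nearer that end, 2 regions 311 and 107 bases outside it together had 107 and 164 reads and a ratio of -0.041 (-0.41 to 0.31).

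Along the gene, the ratio was highest in the first of 4 equal parts of 40.5 kb, counted from the lower coordinate. Its 18 regions held 2852 Luchuan and 3623 Duroc reads, with a summed ratio of 0.23 (0.15 to 0.30), and 17 of them were above 0. The exception, from 136586106 to 136586255, had 22 and 63 reads and a ratio of -0.91 (-1.72 to -0.23). The following parts had 0.00 (-0.066 to 0.066) over 11 regions, 0.028 (-0.073 to 0.13) over 9 and -0.0016 (-0.32 to 0.30) over 3. The longest row of neighbouring regions above 0 counted 16, from 136589585 to 136621482, with ratios from 0.032 to 0.76 and a sum at 0.26 (0.18 to 0.34). This row was singled out after its values had been seen.

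**Figure D4:**
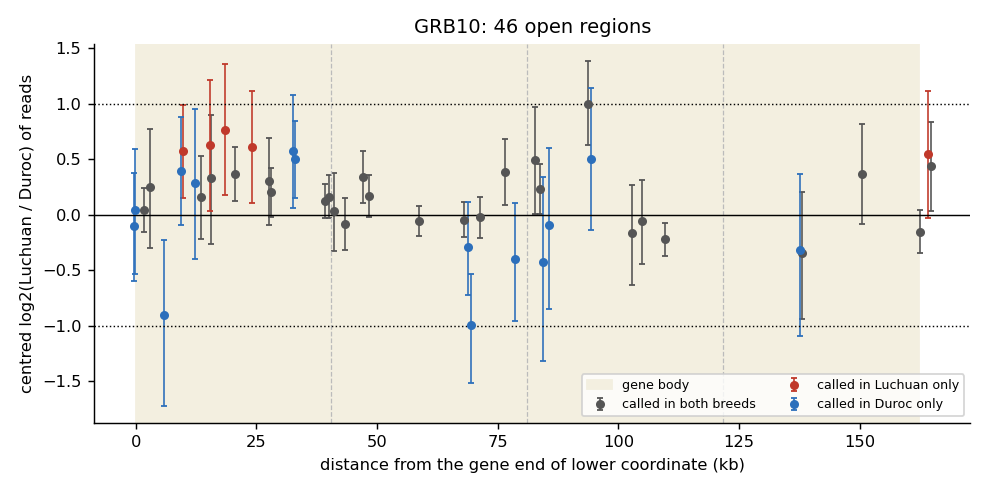
Centred log2 ratio of Luchuan to Duroc reads (vertical axis) for the 46 open regions of GRB10 against their distance in kb from the gene end of lower coordinate, with exact 95% intervals for counting error, coloured by the breed in which the peak was detected. Dashed lines part the gene body, shaded, into 4 equal parts and dotted lines mark 2-fold. In the first part 17 of 18 regions lie above 0.

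A single region of the 75 with at least 20 reads passed 2-fold with an interval that left out 0, and it was a GRB10 region with more reads in Luchuan, or 1.33%. Over all regions with at least 20 reads, 6.03% passed in this direction and 4.93% with more reads in Duroc. The region from 136673788 to 136674256, 93.7 kb from the lower gene end, held 142 reads in Luchuan and 105 in Duroc, at a ratio of 1.002 (0.63 to 1.38). It was on the edge of the rule, and scaling by the common regions took it below 2-fold. On the other side, the GRB10 region from 136649660 to 136649905 held 48 reads in Luchuan and 144 in Duroc, at a ratio of -0.99 (-1.52 to -0.53), just short of 2-fold, and passed with that scaling.

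By counting error alone, 16 of the 76 regions, or 21.1%, had an interval above 0 and 8, or 10.5%, had one below 0. Over all regions these shares were 13.8% and 15.2%. GRB10 held 13 of the 16, and without it 3 of 30 regions were above and 5 below. The breed in which a peak was detected is not independent of its counts. The 10 regions detected in Luchuan alone had a median ratio of 0.69, the 19 in Duroc alone -0.29 and the 47 in both breeds 0.045. Over all regions these medians were 0.78, -0.36 and 0.0090.

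Other imprinted genes were treated in the same way. Of 39 listed genes, 32 were found among the protein-coding genes and 30 had at least 20 reads, of which 17 were above and 13 below 0, with a median of 0.027. Past 1.5-fold lay 1 of the 30, DIRAS3, which encodes a growth-restraining GTPase of the RAS family. It rested on 17 Luchuan and 8 Duroc reads in 1 region that was a peak in Luchuan alone, with a ratio of 1.57 (0.37 to 3.08). This was 3.33% of the 30 genes, against 4.23% of all protein-coding genes, and of the 521 genes with 0.5 to 2 times the reads of DIRAS3, 14.6% had a ratio as high. Of all genes with 20 to 99 reads, 31.1% passed 1.5-fold with more reads in Luchuan. Short of 1.5-fold, CALCR was lowest of the 30 at -0.56 (-0.74 to -0.40), with 410 Luchuan and 901 Duroc reads. Of the 8078 genes with 0.5 to 2 times its reads, 2.24% were as low. ASB4 had 0.49 (0.44 to 0.54) with 7561 and 7994 reads, and 0.50% of 596 such genes were as high. PHACTR2 had 0.35 (0.24 to 0.45) with 1341 and 1565 reads, and 2.33% of 8414 such genes were as high. ASCL2 and ZIM2 had no region.

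Among the listed imprinted genes, 4 share a window with one of the 8 genes. SGCE, beside PEG10, had a ratio of 0.059 (-0.038 to 0.16) over 6 regions. COPG2, beside MEST, had 0.17 (0.035 to 0.30) over 5 regions, with 823 Luchuan and 1088 Duroc reads. BLCAP, around NNAT, had -0.26 (-0.37 to -0.16) over 13 regions. The only PEG10 region is among those of SGCE, 1 MEST region among those of COPG2 and all 6 NNAT regions among those of BLCAP. These ratios therefore rest in part on the reads of the 8 genes. SLC22A18, an organic cation transporter gene beside CDKN1C, had -0.15 (-0.36 to 0.059). Next to it, PHLDA2, which restrains growth of the placenta, had -0.15 (-0.36 to 0.046). The window of PHLDA2 takes in every SLC22A18 region except the one that CDKN1C also has, so these values are not separate. KCNQ1, which encodes a potassium channel, had -0.31 (-0.47 to -0.15). Beyond KCNQ1, TSSC4, annotated as noncoding, had 0.068 (-0.085 to 0.22) and CD81, whose window overlaps, 0.031 (-0.094 to 0.15). TSPAN32 had 0.53 (-0.22 to 1.27) with 32 and 33 reads, and IGF2 -0.021 (-0.47 to 0.41). In the region of DLK1, the noncoding gene MEG3 had 286 Luchuan and 411 Duroc reads in 2 regions and a ratio of 0.049 (-0.18 to 0.27). RTL1 had 133 and 196 reads and a ratio of 0.014 (-0.32 to 0.34), so DLK1 had the fewest reads of these 3 genes. The values of CALCR, ASB4, PHACTR2, PHLDA2, KCNQ1, TSSC4, CD81, TSPAN32, IGF2, MEG3 and RTL1 were chosen for the text after they had been seen.

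**Figure D5:**
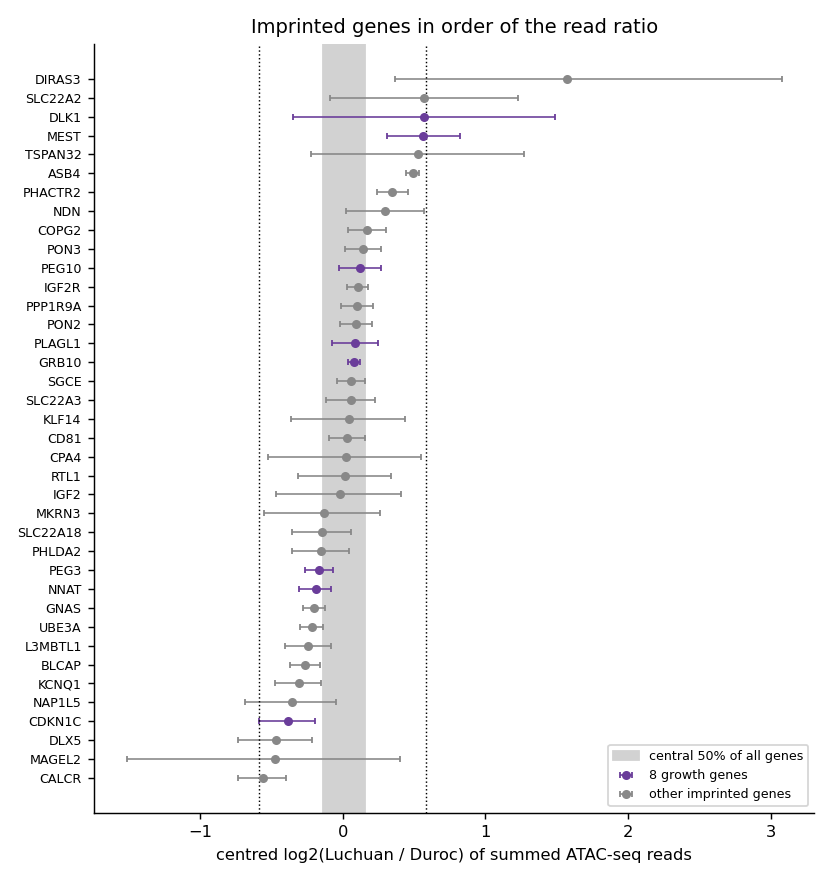
Centred log2 ratio of Luchuan to Duroc reads (horizontal axis) of the 8 growth genes and of 30 other imprinted genes with at least 20 reads, in order of the ratio, with exact 95% intervals for counting error. The grey band holds the central 50% of the protein-coding genes and dotted lines mark 1.5-fold. DIRAS3, with 25 reads, is the only gene past 1.5-fold with an interval that leaves out 0.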

How the data were processed

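Longissimus dorsi muscle of 3 Luchuan and 3 Duroc boars was assayed by ATAC-seq. For the authors' files, Trimmomatic (version 0.36) served to clean the reads, Bowtie2 to align them to Sscrofa11.1 and MACS2 to detect peaks. Duplicate removal, the shift of reads for the transposase and the pooling of boars are not given in the sources used here. The authors deposited raw read counts, 1 column per breed, taken as pooled values. Their own comparison (a rescaled log2 fold change, an average signal and a P) was not used.

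Starts were shifted to count from 1. Overlapping or adjoining common peaks were merged, and the longest interval stood for each region. Genes came from RefSeq (Sscrofa11.1, 19550 protein-coding genes). A difference was counted at 2-fold for a region or 1.5-fold for a gene, with at least 20 reads and an interval without 0, since no test between animals was possible. The calls and intervals were run on counts simulated with counting error alone, the model that the intervals assume. Such a run checks the computation and cannot show how the calls behave with spread between boars. The text names the 8 genes with their strongest and 2-fold regions and some regions at or near a gene end, and other imprinted genes past 1.5-fold or beside a member. Further regions and genes were added to show the range within a gene, a domain or the list of other imprinted genes. Members and lists were chosen with earlier results of these data known. No sequences are printed, as no sequence of the genome was used here. Alternatives covered scaling, window, merging, class, read minimum, pseudocount and fold. Tables were handled with pandas 2.3.3 and NumPy 2.4.6 under Python 3.11.15, intervals were computed with SciPy 1.17.1, and Matplotlib 3.10.9 drew the plots.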

Additional observations from a re-analysis of the deposited data

How the results depend on the processing

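No paired analysis was possible because the count columns carry no replicate number, and leaving out a boar was not possible for the same reason. Of 165 values under alternatives, 141 stayed within the counting interval of the reported value or within 1.5 times the reported count. Some of them could not leave it. MEST and PEG10 have no region outside the gene, so narrower windows left them unchanged. The interval of DLK1 was wide enough to hold all its alternatives, also the one below 0. Without any scaling, which leaves the greater depth of Duroc in place, the log2 ratio was -0.48 for PLAGL1, -0.76 for NNAT, -0.0056 for MEST, -0.96 for CDKN1C, -0.74 for PEG3, -0.45 for PEG10 and -0.49 for GRB10, 3 of the 8 genes and 13 of the other imprinted genes passed 1.5-fold with more reads in Duroc and 0 of the others with more in Luchuan, and 7 regions passed 2-fold with more in Duroc and 0 with more in Luchuan. Scaling by total reads, and scaling within 20 bins of mean signal, each put 1 gene, MEST, past 1.5-fold. NNAT had -0.30 with a window of 2 kb and 0.0024 without regions whose midpoint lies in the body of BLCAP. With scaling by common regions, 0 regions passed 2-fold with more reads in Luchuan and 1 with more in Duroc. With 1.5-fold in place of 2-fold these were 6 and 4, and with every interval counted 1 passed with more in Duroc. DIRAS3 no longer passed, which left 0 genes, with a window of 2 kb, the gene body only or scaling within bins. DLK1 ranged from -0.32 to 1.06. With 44 reads, the interval of DLK1 ran from -0.35 to 1.49, which holds both 0 and 1.5-fold more reads in Luchuan. Restriction to common regions and centring on all genes were chosen after seeing the data, and DLK1 has no common region.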
